A study of Zea mays with 2 samples.

Results

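KN1 peaks at very short gene models, of at most 600 bp, were described here: where they lay, how strong they were and how they differed from peaks at longer gene models. Members were peaks on chromosomes 1 to 10 that the authors had assigned to exactly 1 gene with an identifier beginning Zm00001d, where that gene was at most 600 bp long. There were 1823 such peaks at 1304 gene models, which is 8.83% of the 20647 peaks with 1 listed gene and 8.50% of the 21437 peaks listed in all. The comparison was with 18824 peaks at 12111 longer gene models. Among peaks with 1 listed gene, gene length alone chose the members, so the share of summits that can fall inside a gene is set by the choice. The choice did not use fold enrichment or the side of the gene. Summits inside genes had lower folds in both groups, however, so folds pooled over all summits depend in part on the inside share.

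The peaks came from chromatin immunoprecipitation with sequencing (ChIP-seq) of protoplasts, which are cells without walls, prepared from leaves of etiolated B73 maize seedlings. Both libraries, 1 ChIP and 1 input, came from protoplasts into which the plasmid p1107-KN1 had been introduced and which were then kept overnight in the dark. The labels name the assay BLRP-ChIP-Seq, after a peptide tag that accepts biotin, and do not give the promoter of the plasmid. No library without the plasmid was analysed here, and the peak call of ChIP over input is the only contrast. There are no replicates, so intervals and tests below cover counting error in these libraries only, and peaks of the same gene are not independent. The leaf identity of the cells cannot be checked from a list of peaks.

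KN1 (KNOTTED1) is the founding member of the KNOX class of plant homeodomain proteins, DNA-binding transcription factors that keep cells of the shoot meristem undifferentiated and are normally silent in leaves. Gene annotations contain very short models of different kinds. Some are genes for transfer RNAs and other small RNAs, some are compact genes for small proteins and signalling peptides, and some are fragments or predictions with little other evidence. The deposited table gives no gene type or symbol. None of the identifiers that were looked up occurred in the RefSeq gene table, and not every identifier was looked up singly. No function is therefore assigned to a gene model below.

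The very short gene models with a KN1 peak fell into 2 size groups with few models between them. The first held 187 models of 69 to 87 bp, and the second 1117 models of 107 to 600 bp, of which only 14 were at most 200 bp long. In the first group 1 length dominated: 111 models were exactly 73 bp long, 25 were 72 bp and 18 were 74 bp. Lengths of 72 to 74 bp made up 11.8% of all short models. Among the 1366 genes that RefSeq annotates as tRNA genes in the assembly Zm-B73-REFERENCE-NAM-5.0, 65.0% had these lengths, against 3 of 34313 protein-coding genes. The models of at most 100 bp are therefore called tRNA-sized here, as a statement of length and not of type.

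**Figure D1:**
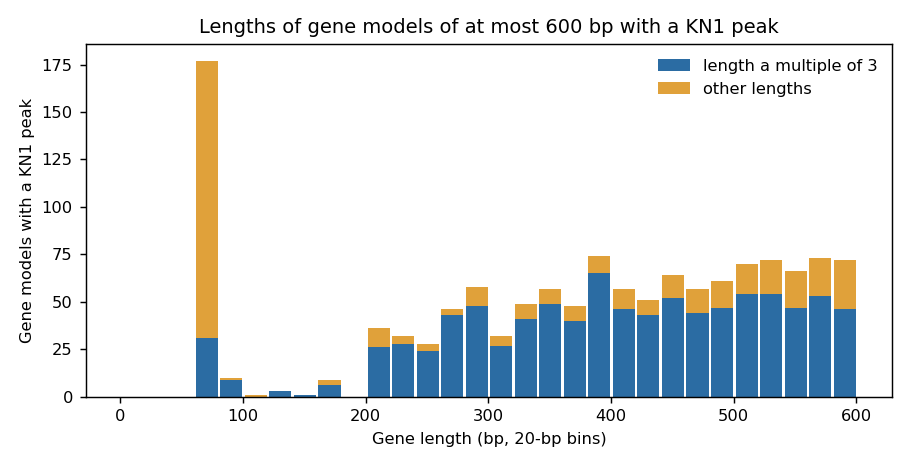
Number of gene models with a KN1 peak (vertical axis) by gene length in bins of 20 bp (horizontal axis), for models of at most 600 bp; blue parts are lengths that are a multiple of 3 and orange parts all other lengths. A narrow column of 177 models of at most 80 bp stands apart from the models of more than 200 bp, which are mostly multiples of 3.

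The larger size group was dominated by lengths divisible by 3. Of the 1117 models over 100 bp, 887 (79.4%) had such a length, as a gene model made of 1 coding exon without untranslated ends must have. Among the tRNA-sized models it was 40 of 187 (21.4%). In the longer models the share was lower in each longer class. It was 68.9% of models over 600 and up to 1200 bp, called intermediate below, then 48.6% up to 2500 bp, 35.2% up to 5000 bp and 33.6% above. Exon structures were not used here, so whether a given model lacks introns or untranslated ends was not tested. The short models lay on both strands, 706 of 1304 on the plus strand.

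KN1 summits at very short gene models lay mainly upstream. Of the 1823 peaks, 1124 had the summit upstream (61.7%, exact 95% interval 59.4 to 63.9%), 572 downstream (31.4%, 29.3 to 33.6%) and only 127 inside the gene (6.97%, 5.84 to 8.23%). Upstream summits outnumbered downstream ones 1.97 to 1 (95% interval 1.78 to 2.18, two-sided exact binomial test, p = 1.54e-41), and they did so on all 10 chromosomes. At longer models the ratio was 2.02. The upstream share of summits outside genes was 66.3% at short and 66.8% at longer models, with an odds ratio of 0.98 (two-sided Fisher's exact test, adjusted p = 0.66 over 8 contrasts). A difference of this size was not detectable, and it changed sign or passed the threshold under some other settings. With models of at most 1000 bp counted as short, the odds ratio was 0.88 (exact test, adjusted p = 0.00376).

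**Figure D2:**
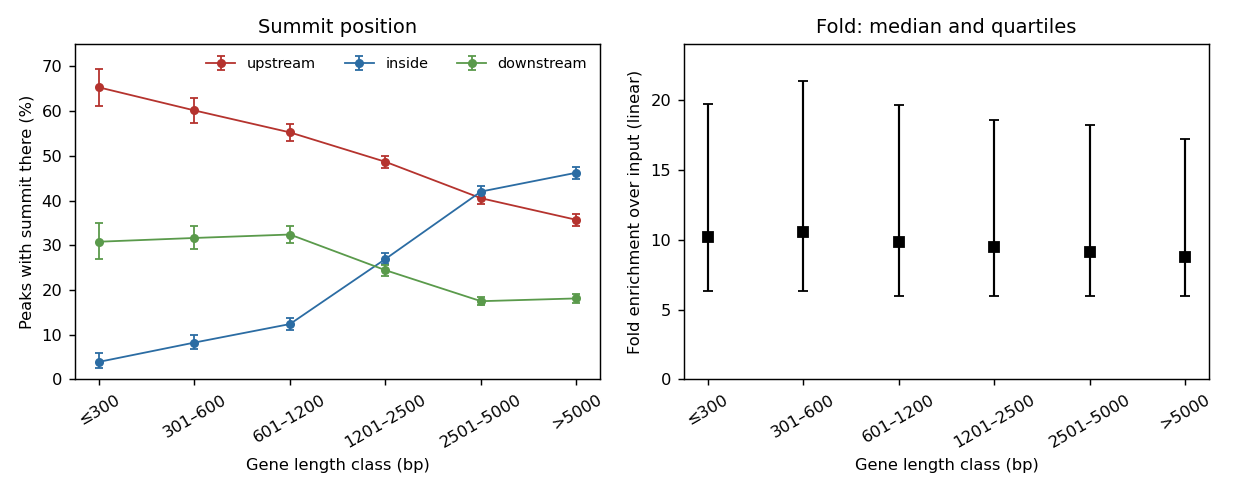
Left, percentage of peaks with the summit upstream of, inside or downstream of the gene (vertical axis) by gene length class in bp (horizontal axis), with exact 95% intervals as bars. Right, the authors' fold enrichment on a linear scale, with squares for the median and bars for the quartiles. Inside summits rise from 3.92% of peaks in the shortest class to 46.2% in the longest, while the median fold goes only from 10.5 in the class from 300 to 600 bp to 8.76 over 5000 bp.

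The distance of the summits from the annotated start differed between length classes, with the intermediate models lying between the very short and the longer ones. At genes over 1200 bp most summits per 100-bp bin fell just past the start, with 9.33% of peaks in the first 100 bp of the gene and 7.38% in the 100 bp before it. At intermediate models the fullest bin was 100 to 200 bp upstream, with 6.66%. At very short models it lay farther out, 200 to 300 bp upstream with 7.57% of peaks, followed by 300 to 400 bp with 6.42%. The first 100 bp from the start of the very short models held 1.92%, a bin that runs past the end of the tRNA-sized ones. Of the upstream summits at short models, 179 (15.9%) lay within 200 bp of the start and 330 (29.4%) at 200 to 500 bp. At longer models the order was the opposite, 29.4% within 200 bp and 20.5% at 200 to 500 bp. At intermediate models the shares were nearly equal, 22.9 and 22.7%. Short models over 100 bp with a length not divisible by 3 also had nearly equal shares, 23.1 and 21.0%. These bins were chosen after the profile had been seen, so no test is given.

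**Figure D3:**
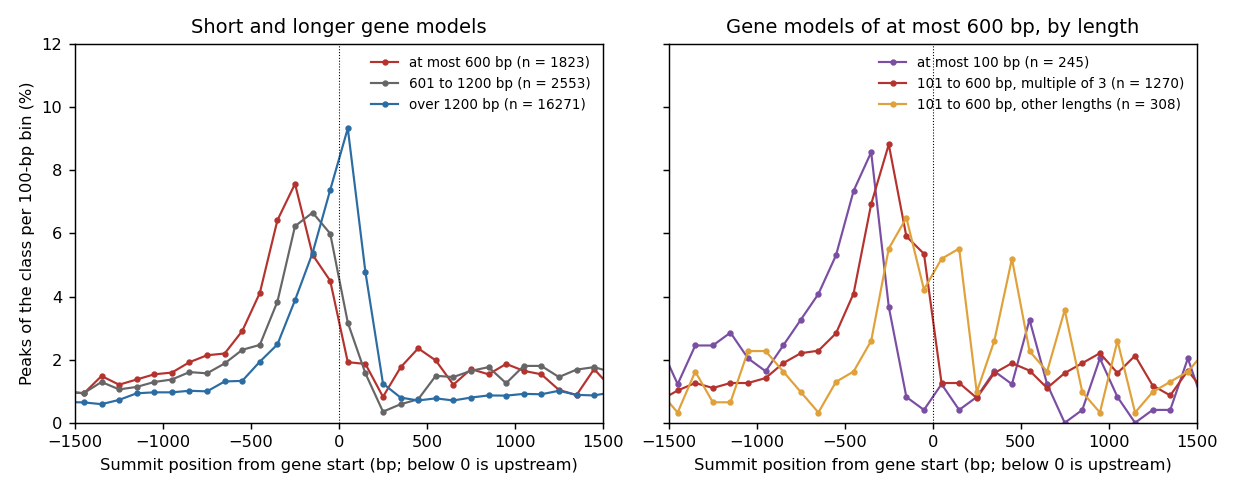
Percentage of the peaks of each class (vertical axis) whose summit falls in each 100-bp bin around the annotated gene start (horizontal axis in bp, values below 0 are upstream by strand). Left, very short, intermediate and longer gene models; right, the 3 kinds of very short models. The maximum shifts from the first bin inside genes over 1200 bp to 200 to 300 bp upstream of very short models, and to 300 to 400 bp upstream of models of at most 100 bp.

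The 3 kinds of short models had different profiles. The tRNA-sized models had 245 peaks, and their fullest bin was 300 to 400 bp upstream (8.57% of peaks), followed by 400 to 500 bp (7.35%). Next to the start they were nearly empty: of 183 upstream summits, 3 (1.64%) lay within 200 bp, and 2 of all 245 peaks had the summit inside. Their upstream to downstream ratio was 3.05 (95% interval 2.27 to 4.15), and for the models of 72 to 74 bp alone it was 4.05 (2.84 to 5.91). Models over 100 bp with a length divisible by 3 had 1270 peaks, a ratio of 1.99 (1.76 to 2.25) and a maximum of 8.82% at 200 to 300 bp upstream. The 308 peaks at the remaining models had a ratio of 1.29 (0.998 to 1.67), and 17.5% of their summits lay inside the gene, against 5.59% for models with a length divisible by 3. Their summits had no single maximum, with 4.22 to 6.49% of peaks in each of the 5 bins from 300 bp upstream to 200 bp past the start.

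Upstream summits at short models as a whole were less often close to the start. Within 500 bp of the start there were 509 of 1124 upstream summits (45.3%), against 4070 of 8148 at longer models (odds ratio 0.83, Fisher's exact test, adjusted p = 0.0091). Without models of at most 100 bp the short share was 48.7% and the odds ratio 0.95 (exact test, adjusted p = 0.47). Against intermediate models, where 45.6% of upstream summits were this close, the odds ratio was 0.99 (exact test, adjusted p = 0.904). Measured from the nearer peak edge, peaks that overlap the gene dropped out, which left 822 upstream peaks at short and 4995 at longer models. Among these the direction reversed, with 41.8% at short and 33.2% at longer models and an odds ratio of 1.45 (exact test, adjusted p = 7.66e-06). Overlapping peaks, the closest ones, were 27.7% of all peaks at short and 55.4% at longer models. The reversal therefore does not show that peaks at short models lay closer. On the downstream side 26.7% of summits at short models and 28.3% at longer models lay within 500 bp of the gene end (odds ratio 0.92, exact test, adjusted p = 0.521).

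The enrichment of peaks at short models covered almost the whole range of the series. The authors' fold of ChIP over input had a median of 10.5 (quartiles 6.31 and 21.03), a lowest value of 2.99 and a highest of 92.5. The median ChIP pileup at these summits, solved from the authors' fold and p-value, was 29 overlapping reads, from 9 to 263. A fold of at least 10 was reached by 942 of 1823 peaks (51.7%), against a background of 47.2% over all peaks with 1 listed gene. Above the median fold of that background there were 53.3% of the short-model peaks and 48.4% of the others, with 48.8% over all (odds ratio 1.21, Fisher's exact test, adjusted p = 0.00031). The median at short models exceeded that at longer ones on 8 of 10 chromosomes, was equal on chromosome 10 and lower on chromosome 3.

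That difference was small and did not pass the test among summits outside genes. Summits inside genes were weaker in both groups, with a median fold of 7.31 at short and 7.71 at longer models, and 35.2% of the longer-model summits were inside. Among summits outside genes, 50.4% at short and 49.1% at longer models exceeded their common median (odds ratio 1.05, exact test, adjusted p = 0.521). Against intermediate models the odds ratio was 1.09 (exact test, adjusted p = 0.399), and with 1 peak per gene it was 1.13 (adjusted p = 0.0827). Peak width gave the same picture. Peaks at short models had a median width of 467 bp, with quartiles of 336.5 and 686.5 bp. More of them were wider than the common median than at longer models (52.4 against 49.6%, exact test, adjusted p = 0.0451), and for summits outside genes the odds ratio was 0.96 (adjusted p = 0.521).

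Very strong peaks made up a larger share at short models than at all longer models pooled, but not clearly larger than at intermediate ones. A fold of at least 50 was reached by 100 short-model peaks (5.49%, 95% interval 4.49 to 6.63%), compared with 3.48% (3.23 to 3.76%) at longer models and a background of 3.66%. At intermediate models it was 4.58% (upper limit 5.47%), with an interval that overlaps that of the short ones. Of the 100 strongest peaks with 1 listed gene, 17 belonged to short models (10.2 to 25.8%), and of the 500 strongest 64 did (12.8%). Over all such peaks the share was 8.83%. Within the short models, a fold of 50 was reached by 6.29% of peaks at models over 300 bp and by 3.54% at models of at most 300 bp. Inside summits, the weaker ones, were 6.97% of peaks at short and 35.2% at longer models, and these shares were not computed for summits outside genes alone. The limits here were set with the values in view, and no test was made.

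The strongest peaks were spread over the flanks much as the members in general. The highest fold, 92.5, was at Zm00001d027145 on chromosome 9 (99794868 to 99795293, plus strand, 426 bp). Its peak ran from 99795027 to 99796757, overlapped the gene and had the summit 921 bp beyond the gene end. Zm00001d027075 on the same chromosome (31342974 to 31343566, plus strand) had the same arrangement, with a fold of 91.8 and the summit 625 bp downstream. The third was a tRNA-sized model of 73 bp, Zm00001d047040 (chromosome 9, 116368372 to 116368444, plus strand), where the peak at 116367552 to 116368321 ended before the gene. Its summit lay 412 bp upstream, in the second fullest bin for models of this size, with a fold of 89.4. Another model of this size, Zm00001d047041, lay 1082 bp from that summit.

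The other peaks among the 10 strongest lay at varied distances. Zm00001d039827 on chromosome 3 had a fold of 86.6 with the summit 1207 bp downstream. Upstream summits were found at Zm00001d036623 on chromosome 6 (fold 86.2, 1297 bp), Zm00001d048294 on chromosome 9 (fold 83.8, 3120 bp) and Zm00001d046634 on chromosome 9 (fold 83.8, 597 bp). Zm00001d005978 on chromosome 2 and Zm00001d045204 on chromosome 9 both had a fold of 82.4, with summits 911 and 796 bp upstream. In all, 6 of these 10 summits were upstream, 3 downstream and 1 inside, close to the 61.7, 31.4 and 6.97% over all members. Of the 10, 7 peaks overlapped their gene, against 27.7% of all members, and 6 were on chromosome 9, against 166 of all 1823. These differences were not tested. All 10 stood over input at the genome-wide floor, and only 7.08% of all members had input above it.

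**Figure D4:**
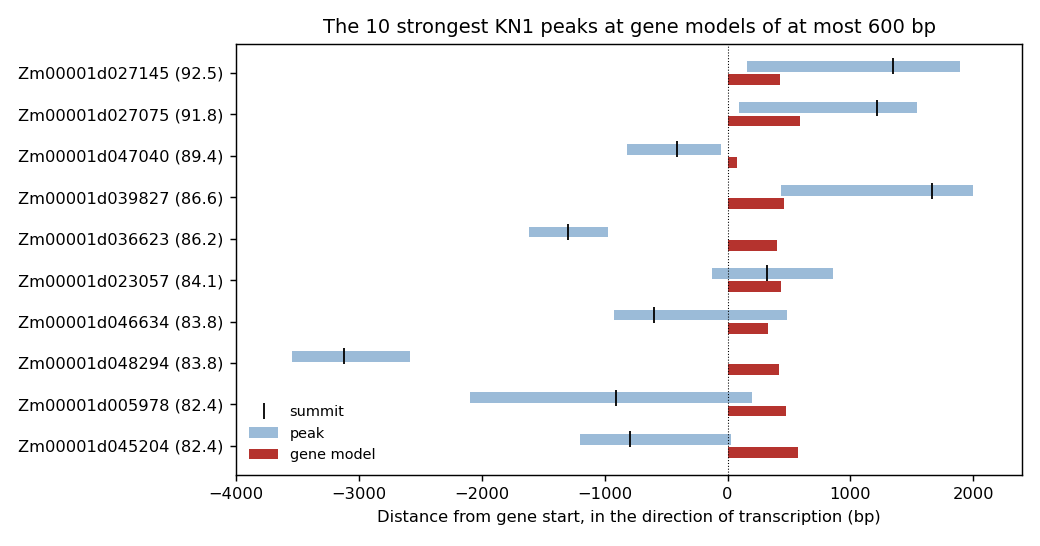
The 10 strongest peaks at gene models of at most 600 bp, aligned at the annotated gene start with transcription to the right (horizontal axis, distance in bp). Blue bars are peaks, black ticks their summits and red bars the gene models; numbers after the identifiers are the authors' fold. One summit, at Zm00001d023057, falls on the gene model itself, against 6.97% over all members, and the others lie on either flank.

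Summits inside a very short model were few, 127 of 1823, a share that gene length sets. The strongest of them was at Zm00001d023057 on chromosome 10 (11219755 to 11220185, plus strand, 431 bp), where the summit lay 317 bp into the gene with a fold of 84.1. Next were Zm00001d001256 on chromosome 7 (fold 58.5, 70 bp into a model of 219 bp) and Zm00001d022826 on chromosome 1 (fold 57.5, 117 bp into a model of 473 bp). Zm00001d027154 on chromosome 9 and Zm00001d022850 on chromosome 1 followed with folds of 51.2 and 43.5. The peak at Zm00001d027154 was 2715 bp wide, far longer than its gene of 471 bp. Per kb of gene, the short models held 0.262 inside summits, compared with 0.781 per kb in the first 500 bp upstream and 0.235 per kb in the first 500 bp downstream. At intermediate models the same densities were 0.21, 0.763 and 0.257.

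Some peaks covered the whole gene model. This was the case for 63 of 1823 peaks at short models (3.46%), against 14 of 18824 at longer ones, and 505 (27.7%) overlapped their gene at least in part. Such a count depends on gene length and peak width by construction. The strongest spanning peaks were those of Zm00001d023057 and Zm00001d046634, followed by Zm00001d001728 (fold 67.7) and Zm00001d016085 (fold 63.8) on chromosome 5 and by Zm00001d001256. At Zm00001d001728 and Zm00001d016085 the summit lay 222 and 256 bp upstream of the start, so these peaks were centred before the gene they covered.

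Most very short models had a single peak. There were 929 models with 1 peak, 275 with 2, 72 with 3 and 28 with 4 or more, up to 6. The share with at least 2 was 28.8%, compared with 36.0% at longer models, whose listed window is longer by the gene itself. Of the 375 models with at least 2 peaks, 182 had summits on both flanks, 128 only upstream and 36 only downstream.

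The models with most peaks differed in where their strong peaks lay. Zm00001d048294 (421 bp) had 6 peaks, 5 of them upstream, with folds of 68.4, 83.8 and 43.1 at 4618, 3120 and 1486 bp and of only 6.31 at 157 bp. Zm00001d047564 on chromosome 9, a model of 73 bp, also had 6, and its strongest, with a fold of 34.7, lay 4529 bp downstream. Zm00001d043399 on chromosome 3 had 4 peaks upstream and 2 downstream, with folds from 6.66 to 29.4. Of the 10 models with 5 peaks, the 2 with the highest fold were Zm00001d026053 and Zm00001d001728. Zm00001d026053 on chromosome 10 was strongest 1281 bp downstream (fold 74.7) and Zm00001d001728 just upstream, at 222 bp (fold 67.7). The other peaks of Zm00001d001728 had folds of 11.2 to 39.3 and lay up to 4840 bp downstream. The assignment of such distant peaks rests on the authors' gene distances alone and does not tie them to the short model.

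The smallest models and the weakest peaks lay at the other end. The shortest models were 69 bp long, and 3 of them are given. Zm00001d032743 on chromosome 1 had a peak with a fold of 25.2 and its summit 353 bp upstream, and one with a fold of 19.3 at 564 bp downstream. Zm00001d033576, also on chromosome 1, had 5 peaks, the strongest with a fold of 44.2 at 689 bp upstream, and Zm00001d040425 on chromosome 3 had 1 with a fold of 6.66. The lowest fold of all members was 2.99 at Zm00001d038401 on chromosome 6, from a pileup of 11 reads over a raised input. The next lowest, 3.24 at Zm00001d001640 and 3.51 at Zm00001d042806, came from pileups of 12 reads, over a raised input, and of 9 reads.

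Fold also varied with distance from the short model. Upstream summits within 200 bp had a median fold of 8.06 (179 peaks), against 11.9 at 200 to 500 bp (330 peaks) and 13.1 at 500 to 1000 bp (196 peaks). Farther out the medians were 10.5 at 1000 to 2000 bp and 11.2 beyond 2000 bp. Downstream, the median was likewise 7.71 within 200 bp and 13.5 at 500 to 1000 bp. The nearest summits were also the weaker ones at longer models, with medians of 9.11 upstream and 8.76 downstream within 200 bp and 11.2 and 11.6 at 500 to 1000 bp. No test was made of these medians.

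Input was low at all the very short models. The input level was above the genome-wide floor at 129 of 1823 peaks (7.08%), against 8.03% at longer models (odds ratio 0.87, exact test, adjusted p = 0.256). The highest level was 3.52, or 1.9 times the floor, at a peak of fold 54.5 downstream of Zm00001d047879 on chromosome 9. At intermediate models it reached 5.53, and at models from there up to 2500 bp 4.02. Far higher maxima were found only in longer classes, 72.9 up to 5000 bp and 83.4 above. At short models the next level, 3.02, was found among others at peaks of Zm00001d032102, Zm00001d028404, Zm00001d027988 and Zm00001d038401. Their folds were 14.4, 11.7, 39.3 and 2.99.

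Along the chromosomes the short models followed the longer ones. With each chromosome divided into 10 equal segments, 11.7% of short-model peaks and 10.8% of the others lay in the fourth to the sixth (odds ratio 1.09, exact test, adjusted p = 0.337), and 37.3 and 38.2% in the first and last. By chromosome, short models took from 6.77% of peaks on chromosome 7 (95% interval 5.64 to 8.06%) to 10.5% on chromosome 9 (9.07 to 12.2%). The tRNA-sized models were the exception at the ends, with 28.2% of their peaks in the outer segments, a difference that was not tested.

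Peaks at very short models more often had another listed gene close to the summit, a share that gene length partly sets. Another listed gene model lay within 2000 bp of the summit for 196 of 1823 peaks (10.8%, 95% interval 9.37 to 12.3%), against 5.80% at longer models (odds ratio 1.96, Fisher's exact test, adjusted p = 1.17e-13). The contrast held among summits outside genes, with an odds ratio of 2.12, and against intermediate models, with 1.44 (exact test, adjusted p = 0.00474). Of these 196 peaks, 147 had a longer model as the neighbour and 49 another short one. Among tRNA-sized models the share was 46 of 245 peaks (18.8%), and in 26 of the 46 the neighbour was tRNA-sized as well. Only genes with a listed peak enter this count, so it does not measure gene density. The peak's own gene also takes up part of the 2000 bp around the summit, more so when it is longer. The share therefore depends in part on gene length by construction, also outside genes. It fell from 14.7% of peaks at models of at most 300 bp to 5.06% at models over 5000 bp. The tests cannot separate this from a difference in neighbours.

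The identifiers of the short models showed a further feature that length did not choose. On 8 chromosomes (1 to 7 and 9) the listed genes fall into a main run of numbers and a smaller run, separated by a gap of more than 400. On chromosome 9, for example, the small run reaches from Zm00001d027047 to Zm00001d027220. Of the short models on these chromosomes, 198 of 1111 (17.8%, 95% interval 15.6 to 20.2%) were in the small run, against 178 of 10205 longer models (1.74%, 1.5 to 2.02%). Thus 52.7% of the 376 genes numbered apart were very short. Peaks of the short models in the small runs had a median fold of 11.2, compared with 10.5 for the other short models. For longer models the order was the opposite, 8.76 in the small runs and 9.47 outside. Of the 10 strongest peaks at short models, 2 belonged to such a run, those at Zm00001d027145 and Zm00001d027075. This is close to the share of short models as a whole. Among the 5 strongest with the summit inside, however, those at Zm00001d001256, Zm00001d022826, Zm00001d027154 and Zm00001d022850 did, a larger share. The strongest of these 5, at Zm00001d023057, is also among the 10 and lies on chromosome 10, where no run was defined. The runs were noticed in the data and these differences were not tested.

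**Figure D5:**
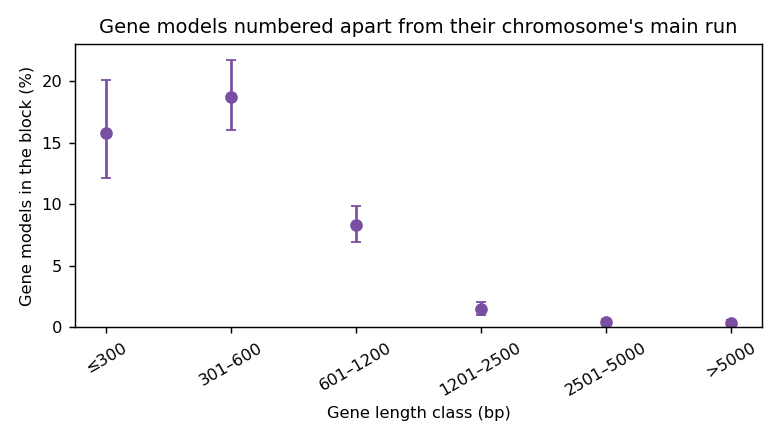
Percentage of gene models with a KN1 peak that are numbered apart from the main run of identifiers of their chromosome (vertical axis), by gene length class in bp (horizontal axis), for the 8 chromosomes with such a run. Points are shares and bars exact 95% intervals; the share is 15.8 and 18.7% in the classes up to 600 bp, 8.3% from there to 1200 bp and at most 1.48% above.

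Just inside and just outside the length limit the median folds were close, and other values were less so. The 252 peaks at models in the last 50 bp up to the limit had a median fold of 9.99 and 62.7% upstream summits, and the 228 at models in the first 50 bp beyond it a median fold of 9.11 and 56.1%. The upstream to downstream ratio was 2.29 (1.72 to 3.08) inside and 1.56 (1.17 to 2.09) outside the limit, and a fold of at least 50 was reached by 6.75 and 3.95%. Of the upstream summits, 21.5% inside and 12.5% outside the limit lay within 200 bp of the start, the reverse of the order between short and longer models. These values are given with no test.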

How the data were processed

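One table of the whole series was used, with 1 row per peak and gene and no header. Tools listed in the submitters' processing notes are MACS2, SAMtools 1.11, Bowtie2 2.4.2 and fastp 0.21.0. Peak names mention duplicate removal. The genome build is not given in the sources used here, and the gene identifiers are those of the AGPv4 annotation. As deposited by the authors, the table holds at each summit a linear fold ratio, ChIP over input, its −log10 p-value and −log10 q-value, and a score that follows the q-value. Depth per library is not in the table, and the pileups give the reads that overlap each summit, not all reads of a peak.

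Positions are 1-based, with peak starts shifted accordingly. Gene coordinates were kept, since 114 of 114 mitochondrial genes matched RefSeq by 1-based start and end. Summits were placed by strand. Pileup and input were solved from fold and p under the MACS2 formulas, with a largest relative error of 8.1e-06, and the common input level of 1.85 was taken as the floor. That floor depends on the genome size set for peak calling, and folds at most peaks are set against it. Removal of duplicates limits the pileup of strong peaks.

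Shares of peaks at short and longer models were compared with two-sided Fisher's exact tests, Benjamini-Hochberg adjusted over 8 contrasts. Intervals are exact Clopper-Pearson 95% intervals for counting error only. Computations used scipy 1.17.1, pandas 2.3.3, numpy 2.4.6 and Python 3.11.15, with plots by matplotlib 3.10.9, and the computations were tested on simulated data. Named genes were the 10 strongest peaks, the 5 strongest with the summit inside, the 5 strongest that span the gene, the 3 shortest models, the 5 models with most peaks, the 5 peaks of highest input and the 3 of lowest fold. Ties were broken by fold for models with most peaks, where 10 models with 5 peaks were tied for the last 2 places, and otherwise by chromosome and start. Members, lists and tests were chosen with earlier results of these data known. No genome of the files' build was used here, so no sequences are shown.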

Additional observations from a re-analysis of the deposited data

Results flagged for a closer look

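Some peaks near very short genes fall outside the comparisons above. A set of 168 peaks had several listed genes, at least 1 of them a model of at most 600 bp, with a median fold of 11.7 (3.86 to 82.7). Another 46 peaks were assigned only to 1 RNA gene with an identifier of another kind, and their median fold was 9.47 (2.4 to 74). Both sets consist of called peaks, so that they stand above input follows from the peak call. A control library without the plasmid was not analysed here.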

How the results depend on the processing

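No paired analysis was possible because there is 1 library per group. The upstream to downstream ratio (12 alternatives, 1.66 to 2.16) and the neighbouring gene contrast (12 alternatives, odds ratios 1.44 to 2.71) kept direction and significance. The neighbouring gene contrast depends in part on gene length by construction under every setting. Other odds ratios, short over longer models, changed as follows, and the cause was not tested. Fold above the median (1.21) lost the threshold above the median score (1.15), with 1 peak per gene (1.13), at a 300 bp limit (1.2), against intermediate models (1.09), at peak widths of 400 to 600 bp (1.07), at lengths divisible by 3 (1.13) and outside genes (1.05). Wide peaks (1.12) lost it above the median score (1.13), with 1 peak per gene (1.05), at 300 bp (1.09) and against intermediate models (1.03), and reversed outside genes (0.957). The proximal upstream share (0.83) lost it above the median score (0.86), against intermediate models (0.987) and over 100 bp (0.95), and reversed with peak edges (1.45, exact test, adjusted p = 7.66e-06) and at lengths divisible by 3 (1.02). The upstream share (0.975) reversed above the median score (1.02), at 300 bp (1.06), against intermediate models (1.15), with edges (1.13) and at widths of 400 to 600 bp (1.02), and passed the threshold at 1000 bp (0.879). The proximal downstream share (0.92) reversed against intermediate models (1.03), with peaks of several genes (1.02) and with edges (1.18), and passed at 1000 bp (0.847). Raised input (0.87) passed above the median score (0.70), and the chromosome middle (1.09) reversed at 300 bp (0.955). Peaks overlapping the gene by edge made up 27.7%, against 6.97% by summit. At longer models they made up 55.4%, and settings with edges leave such peaks out of both flanks. The settings for lengths over 100 bp, lengths divisible by 3 and summits outside genes were chosen after seeing the data. The lowest pileup at a summit of the short models was 9 reads.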
